A study of Mus musculus with 24 samples.

Results

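The muscle arrays highest in Myh7, the gene of the slow (type I) myosin heavy chain, were compared with those lowest in it. The arrays were chosen by their measured Myh7 signal. The 2 Myh7 probes of the deposited value table were averaged, the mean of the array's own diet group was subtracted, and the 24 arrays were ranked. The 8 highest and the 8 lowest arrays, 16 of 24, were set against each other. The other 8 were kept as a middle level of their own. Myh7 chose the arrays and is left out of every result.

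Total RNA from skeletal muscle of 24 mice was hybridised in 1 colour (Cy3), 1 array per mouse. STD_Cont (8 mice) is the control lineage on the standard, low-fat diet. HFD_Cont (8 mice) is the same lineage on a high-fat diet, and HFD_O3 (8 mice) is the omega-3 lineage on the high-fat diet. The muscle dissected, the strain, the age, the sex and what made the lineages differ are not stated in the labels.

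Slow fibres contract slowly, resist fatigue and rely on mitochondrial respiration. They build their sarcomeres from dedicated isoforms of myosin, troponin and tropomyosin, and pump calcium back into the sarcoplasmic reticulum with the slow and cardiac pump SERCA2. Fast fibres use other members of the same families, and most limb muscles of the mouse are dominated by fast fibres. In whole muscle, fewer slow fibres and less of a slow transcript per fibre cannot be told apart.

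Group-centred Myh7, given here only to describe the choice, ran from 0.51 to 1.73 (log2) in the high arrays, with a median of 1.17. In the low arrays it ran from -3.28 to -0.60, with a median of -0.78. The last array inside the high level was HFD_O3 8 at 0.51, and the first outside was STD_Cont 8 at 0.37. At the other end STD_Cont 1 was inside at -0.60 and HFD_O3 2 outside at -0.49. The high level held 2 STD_Cont, 3 HFD_Cont and 3 HFD_O3 arrays, and the low level held 4, 2 and 2. The spread was unequal between diets: -0.94 to 1.73 in STD_Cont, -3.28 to 1.54 in HFD_Cont and -0.77 to 0.65 in HFD_O3.

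One array, HFD_Cont 4, stood far below the rest: its -3.28 was followed by STD_Cont 4 at -0.94. Slides, the glass carriers that each held 8 of the arrays, were also shared unequally. Slides 1, 2 and 3 carried 3, 1 and 4 high arrays and 2, 5 and 1 low arrays. The share of probes well above background was 52.5% to 60.7% in the high arrays and 52.2% to 58.6% in the low arrays, and 0 spots were saturated.

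Levels below are log2 processed signals minus the 75th percentile of the array's probes, so 0 is the 75th percentile and 1 unit is a doubling. They can be compared between arrays but not between genes. Differences are high minus low, from a limma fit over all 24 arrays with diet group as a term, and a gene was called at a Benjamini-Hochberg adjusted p under 0.05. Because a measured gene placed the arrays, the fit describes which genes varied together with Myh7 and tests no treatment.

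Of 19940 gene names, 142 were called (0.712%): 138 were higher in the high arrays (0.692%) and 4 lower (0.0201%). The median difference of all genes was -0.02. Among the 142, 46 differed by more than 1 log2 unit and 8 by more than 2, and 141 had the mean of the middle arrays between those of the high and low arrays. The 142 were chosen for their difference on these same arrays, and the share over all genes was not counted. No graded relation to Myh7 can therefore be read from the 141. HFD_Cont 4 was the lowest of all 24 arrays for 87 of the 138 (4.68% of all genes had it lowest). When the arrays were ranked again without it, 120 genes were called. With slide as a block in the fit the number was 23, and with the mean of white adipocyte markers as a covariate it was 26.

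The isoforms that build the slow sarcomere made up the clearest group. Of 14 slow sarcomere genes measured, 10 were called higher, 0 lower, and the list's median difference was 1.39. Ranked again without HFD_Cont 4, the same 10 were called and the median was 1.0. With the slide block 4 of the 14 were called, Myl6b, Tnnc1, Tnni1 and Tpm3, and the median of all 14 was 1.20. With slide and array row together as a block 1 was called, Myl6b, and the median of all 14 was 1.14.

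The slow troponin complex, which couples calcium to contraction, followed Myh7 in all 3 subunits. Tnnt1 (slow troponin T, probe at chr7:4456265-4456324 of mm9) lay at 7.98, 8.72 and 9.14 in the high arrays (lowest, median, highest) and at 2.71, 6.84 and 7.17 in the low arrays. The levels did not overlap, and the lowest value, 2.71, was HFD_Cont 4; the next lowest low array was at 6.58. The fitted difference was 2.46 ± 0.41 (log2 ± SE), or 5.49-fold (limma adjusted p = 0.00442). Tnni1 (slow troponin I, chr1:137707474-137707533) lay at 5.68, 6.47 and 6.92 in the high arrays and at 0.67, 4.48 and 4.88 in the low arrays, again without overlap. Its difference was 2.52 ± 0.39, or 5.74-fold (limma adjusted p = 0.00227). Tnnc1 (slow and cardiac troponin C, the calcium sensor) gave 4.23, 5.11 and 5.64 against -0.79, 2.96 and 3.54, a difference of 2.61 ± 0.39, or 6.09-fold (limma adjusted p = 0.00159). Ranked again without HFD_Cont 4, the 3 differences were 1.80, 1.89 and 1.98 in the order Tnnt1, Tnni1, Tnnc1, each with a limma adjusted p no higher than 3.18e-06. With the slide block Tnnt1 was at 2.18 (adjusted p = 0.0729), outside the threshold, whereas Tnni1 and Tnnc1 stayed inside it at 0.0497 and 0.0379. Neither stayed inside it with slide and array row together (limma adjusted p of 0.1145 and 0.1126). The same held with the label's replicate number as a block (0.1044 and 0.0981).

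**Figure D1:**
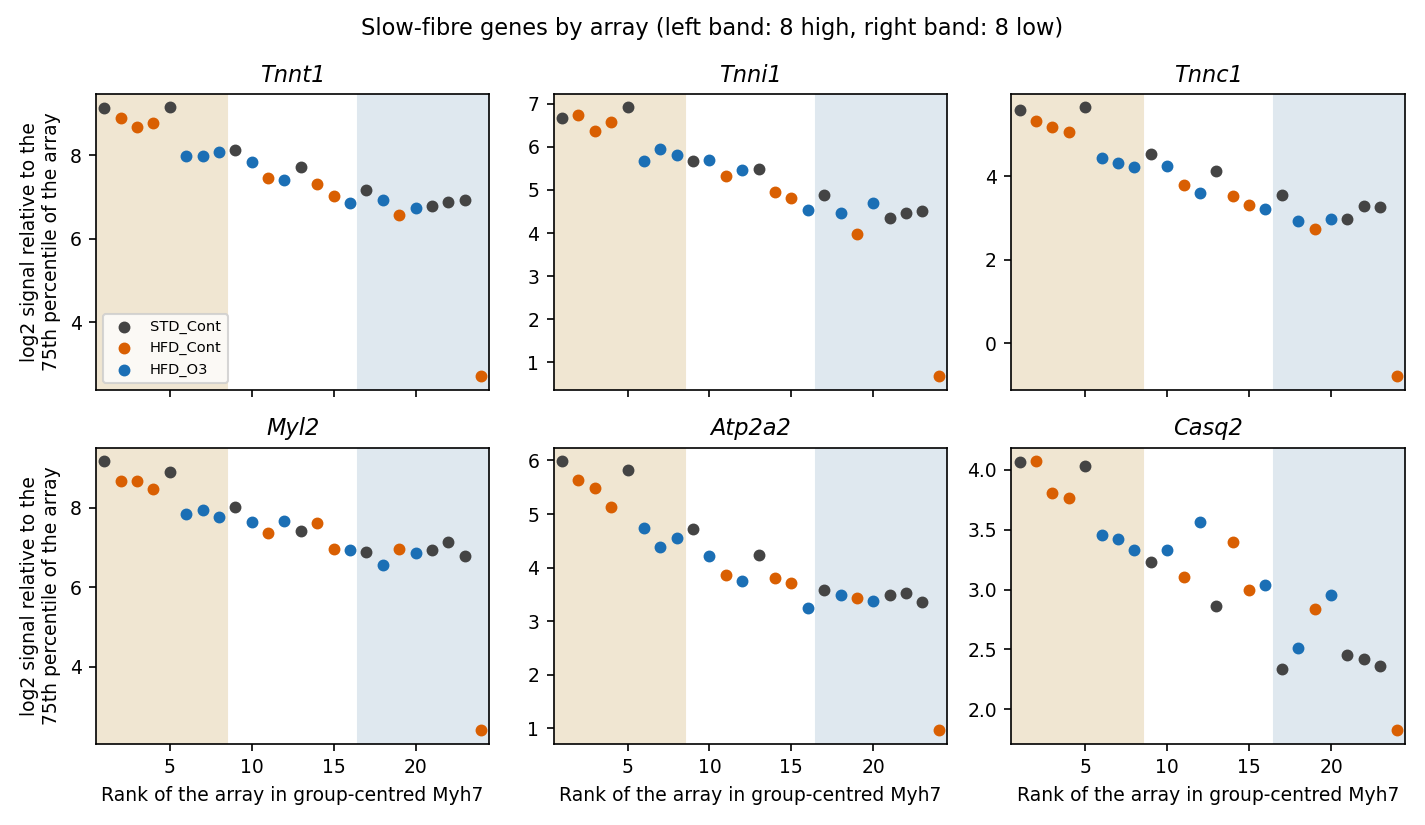
Level of 6 slow-fibre genes (log2 signal relative to the array's 75th percentile, vertical axis) in each of the 24 arrays ordered by group-centred Myh7 (horizontal axis, rank 1 highest), 1 point per array, coloured by diet group. The 8 high arrays (left band) sit above the 8 low arrays (right band) in every panel, and the last point, HFD_Cont 4, lies lowest in all 6, at 2.71 for Tnnt1 and 1.82 for Casq2.

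The slow light chains and tropomyosin moved alike. Myl2, the regulatory light chain shared by slow fibres and ventricle, lay at 7.77, 8.56 and 9.17 in the high arrays and at 2.39, 6.86 and 7.13 in the low arrays, without overlap. It differed by 2.33 ± 0.45, or 5.02-fold (limma adjusted p = 0.0129), and by 1.63 when the arrays were ranked again without HFD_Cont 4. Myl6b, the slow essential light chain, differed less: 2.15, 2.79 and 3.52 against 1.69, 1.81 and 2.26, or 0.94 ± 0.13 (1.92-fold; limma adjusted p = 0.000929). HFD_Cont 4 was not the lowest for Myl6b, at 1.84, and 6 of the 8 high arrays were above all low arrays. A second Myl6b probe showed a plain mean difference of 0.03, against 0.87 for the probe used.

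Tpm3, slow tropomyosin, which lies along the thin filament, gave 4.97, 5.91 and 6.56 against 0.97, 4.03 and 4.44 without overlap, a difference of 2.39 ± 0.33 (5.25-fold; limma adjusted p = 0.000724). Its probes disagreed. One further probe had a plain mean difference of 2.22 against 2.17 for the probe used, and 3 others lay between 0.35 and 0.37. Tpm3 also encodes non-muscle tropomyosins, and the files do not say which transcripts each probe reads.

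Z-disc and M-band genes followed at smaller sizes. Myoz2 (calsarcin, which ties calcineurin to the Z-disc) differed by 1.42 ± 0.25 and Myom3 (a myomesin of the M-band) by 1.36 ± 0.23, with limma adjusted p of 0.00608 and 0.00443. Myoz2 lay at 5.33 to 6.75 in the high arrays and at 2.79 to 5.04 in the low arrays, and Myom3 at 4.75 to 5.84 and at 2.36 to 4.48, both without overlap. Ankrd2, a stretch-responsive ankyrin-repeat protein, differed by 1.02 ± 0.22 (limma adjusted p = 0.0256), and Actn2, the Z-disc crosslinker alpha-actinin, by 0.61 ± 0.14 (adjusted p = 0.0397). Both overlapped between the levels. Ankrd2 stayed past the threshold in 13 of 16 fits that each omitted a single array, and Actn2 in 4.

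The remaining 4 slow sarcomere genes did not pass. Csrp3, the muscle LIM protein, differed by 1.45 ± 0.36 (limma adjusted p = 0.0749), with HFD_Cont 4 at 1.35 and the next low array at 4.06. With Myh7 as a continuous term Csrp3 was called (limma adjusted p = 1.56e-05), also with HFD_Cont 4 removed (0.0107). Mybpc1, slow myosin-binding protein C, gave 0.40 ± 0.16 (adjusted p = 0.466). Myl3, the other slow and ventricular essential light chain, gave 0.11 ± 0.07, and Smpx, a small protein of striated muscle, 0.05 ± 0.06. The high and low arrays covered nearly the same range for Myl3, 9.55 to 9.81 and 9.34 to 9.83.

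Calcium handling of the slow type split in the same way. Atp2a2 (the SERCA2 pump; chr5:122903704-122903763 of mm9) lay at 4.39, 5.31 and 5.98 in the high arrays and at 0.96, 3.46 and 3.58 in the low arrays. The levels did not overlap and differed by 2.25 ± 0.29, or 4.77-fold (limma adjusted p = 0.000335). Casq2, the cardiac and slow calsequestrin that stores calcium, lay at 3.33, 3.78 and 4.07 against 1.82, 2.44 and 2.96 and differed by 1.28 ± 0.15, or 2.43-fold (adjusted p = 0.000229). Both were called with the slide block (2.03 and 1.25), with slide and array row together (2.08 and 1.39) and with the adipocyte covariate (2.08 and 1.29). With the label's replicate number as a block Casq2 was called (1.65, limma adjusted p = 0.0268) and Atp2a2 was not (2.30, adjusted p = 0.0593). Sln, sarcolipin, a small inhibitor of the pump, did not pass at 1.54 ± 0.40 (adjusted p = 0.0948): HFD_Cont 4 was the highest low array for it, at 3.46. Ranked again without that array, Sln differed by 1.87 (limma adjusted p = 0.00997). Hrc, a calcium-binding protein of the reticulum, was at -0.06 ± 0.04.

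Promoter windows of RefSeq (GRCm38.p6, 250 bases before to 50 after the start) were found for 11 of the 12 slow sarcomere and calcium genes called higher, in 14 windows. Atp2a2 was not matched. They were searched on both strands for the MCAT element CATTCC, bound by TEAD factors, and for the binding motif of MEF2 factors; both elements are known from muscle genes. MEF2 matches stood in 3 of the 14 windows (Casq2, Myoz2, Myom3). The share was 3.19% of all 32851 windows and 2.06% of the windows of measured genes. MCAT stood in 1 of the 14 (Tnnc1), in 14.7% of all and in 12.9% of those of measured genes. The E-box CAGCTG and the ERR element AAGGTCA were searched too, and are not marked below. They stood in 6 and 1 of the 14 windows and in 16.3% and 4.72% of all. Among windows of measured genes the shares were 16.2% and 3.61%. The 6 E-box windows belong to 4 genes, and windows of the same gene can overlap, as for Tnni1. The 4 windows with a MEF2 or MCAT match are shown 5′ to 3′ on the gene's strand because these genes followed Myh7 together, with the match in capitals. They are chr14:31208062-31208361 (plus strand), chr3:102086165-102086464 (plus), chr3:123034938-123035237 (minus) and chr4:135759465-135759764 (plus).
Tnnc1: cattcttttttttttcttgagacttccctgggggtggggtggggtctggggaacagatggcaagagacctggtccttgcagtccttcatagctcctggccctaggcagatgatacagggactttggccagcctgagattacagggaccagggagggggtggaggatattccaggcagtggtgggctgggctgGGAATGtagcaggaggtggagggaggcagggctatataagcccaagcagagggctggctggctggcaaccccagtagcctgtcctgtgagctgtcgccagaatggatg
Casq2: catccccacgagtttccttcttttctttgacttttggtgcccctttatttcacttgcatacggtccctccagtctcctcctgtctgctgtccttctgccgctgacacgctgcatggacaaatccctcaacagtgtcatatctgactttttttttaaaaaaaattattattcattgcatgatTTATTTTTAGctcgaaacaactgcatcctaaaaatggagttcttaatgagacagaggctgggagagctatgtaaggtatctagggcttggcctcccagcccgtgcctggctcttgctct
Myoz2: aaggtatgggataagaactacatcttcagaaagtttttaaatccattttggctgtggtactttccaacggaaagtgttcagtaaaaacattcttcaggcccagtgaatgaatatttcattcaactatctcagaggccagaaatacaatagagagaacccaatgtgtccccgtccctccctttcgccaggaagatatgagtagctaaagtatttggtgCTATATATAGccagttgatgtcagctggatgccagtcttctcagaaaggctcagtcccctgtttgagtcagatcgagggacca
Myom3: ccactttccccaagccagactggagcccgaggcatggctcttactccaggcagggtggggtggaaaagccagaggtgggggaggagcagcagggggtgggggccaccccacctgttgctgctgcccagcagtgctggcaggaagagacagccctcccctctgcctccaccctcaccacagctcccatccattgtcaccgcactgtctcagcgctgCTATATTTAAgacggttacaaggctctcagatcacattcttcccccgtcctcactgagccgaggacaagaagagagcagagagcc
The match began 58 bases before the start in Tnnc1, read as the reverse complement of CATTCC, and 69, 33 and 35 bases before it in Casq2, Myoz2 and Myom3. Over the 151 windows of all genes called higher, 4.64% held the MEF2 motif and 15.9% the MCAT element. No binding was measured.

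The fast counterparts had smaller median differences. None of 15 fast sarcomere genes and none of 8 fast calcium genes was called in either direction, with median differences of -0.13 and -0.09. All but 1 of the 15 and all but 1 of the 8 were below 0. The median of all genes was -0.02, and the share of all genes below 0 was not counted. Whether the fast genes shifted slightly the other way was not tested. The members with the smallest p were Mybpc2, fast myosin-binding protein C, at -0.17 ± 0.06 (limma adjusted p = 0.313) and Mylk2, the kinase of the fast regulatory light chain, at -0.22 ± 0.08 (adjusted p = 0.399). The mean level of the fast sarcomere list was 8.99 to 9.31 in the high arrays and 9.02 to 9.36 in the low arrays, so the levels overlapped almost entirely. The slow sarcomere list ran from 6.13 to 7.10 and from 3.47 to 5.70.

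Of 7 other myosin heavy chains 3 were called higher and 0 lower, and 6 of the 7 had differences above 0 (median 0.85). Myh7b, a slow-tonic relative of Myh7, lay at 3.33, 4.24 and 4.76 in the high arrays and at -0.91, 2.16 and 2.57 in the low arrays, without overlap. It differed by 2.49 ± 0.32, or 5.60-fold (limma adjusted p = 0.000363), although a second probe had a plain mean difference of -0.10. Myh13, best known from extraocular muscle, differed by 1.70 ± 0.15 (limma adjusted p = 5.35e-06) with 4.98, 5.63 and 6.08 against 2.90, 4.07 and 4.41. Myh3, the embryonic chain, differed by 1.13 ± 0.21 (adjusted p = 0.00975), with 7 of 8 high arrays above all low arrays. With the slide block Myh3 was not called (1.16, adjusted p = 0.0729), which left 2 of 7. The chains share long stretches of sequence, and how far these probes read Myh7 itself was not tested.

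The fast chains of limb muscle are given here although some lie outside the naming rule and were chosen after their values were seen. Myh2 (type IIa) lay at 9.42 to 10.06 in the high arrays and at 8.47 to 9.71 in the low arrays, a difference of 0.54 ± 0.14 (limma adjusted p = 0.0893). Its other probes had plain mean differences of 1.08 and 0.96 against 0.51 for the probe used, and with Myh7 as a continuous term Myh2 was called (adjusted p = 0.000325). Myh1 (type IIx) differed by 0.08 ± 0.16 and Myh4 (type IIb) by -0.13 ± 0.12, with limma adjusted p of 0.954 and 0.862. Myh6, the cardiac alpha chain beside Myh7 in the genome, differed by 0.85 ± 0.21 (adjusted p = 0.0713). Without HFD_Cont 4 in the ranking it differed by 0.93 (adjusted p = 0.0346).

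**Figure D2:**
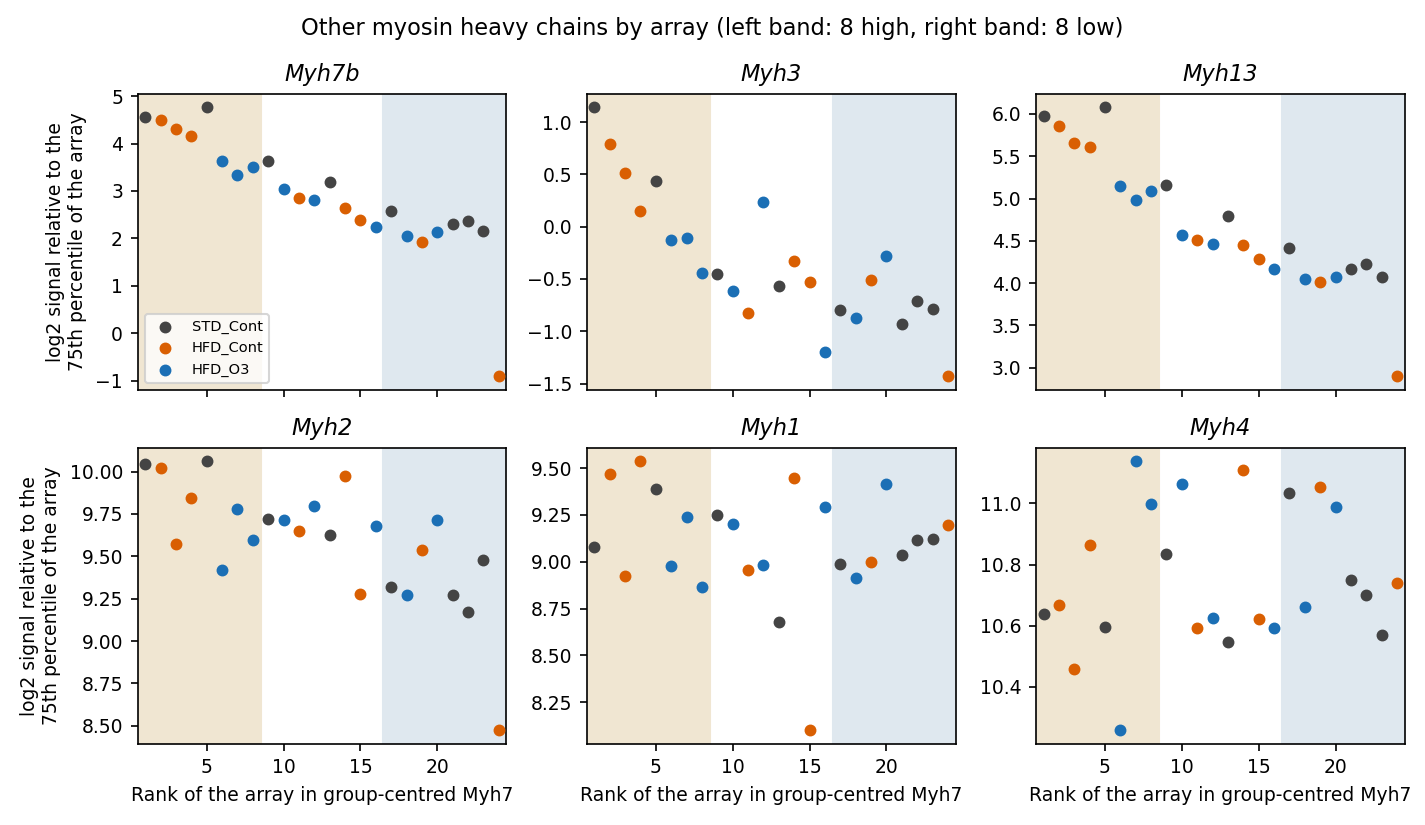
Level of 6 other myosin heavy chains (log2 signal relative to the array's 75th percentile, vertical axis) in the 24 arrays ordered by group-centred Myh7 (rank, horizontal axis), 1 point per array, coloured by diet group. Myh7b, Myh3 and Myh13 fall from the left band (8 high arrays) to the right band (8 low arrays), while Myh1 and Myh4 show no such slope (differences of 0.08 and -0.13).

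Several genes outside the sarcomere lists were called. Tecrl, an enoyl reductase-like protein of heart and muscle, had a fitted difference of 3.22 ± 0.41 (limma adjusted p = 0.000335). It was dim, at -3.05, -1.18 and -0.46 against -6.55, -3.83 and -3.03, and only 2 of the 8 low arrays were well above background, so the size of the difference is not fixed by these data. The same limit held for Astn2 (astrotactin; 1.99 ± 0.28, 2 of 8 low arrays), Mhrt (1.92 ± 0.33, 2 of 8) and Lgi1 (a secreted leucine-rich protein; 1.93 ± 0.38, 1 of 8). A second Astn2 probe had a plain mean difference of 0.14. Mhrt is a long noncoding RNA of the Myh7 locus; its probe, at chr14:55593124-55593183 of mm9, lies on the strand opposite to the Myh7 probes. Cyfip2, a regulator of actin assembly, was well above background on all arrays and did not overlap: -0.09, 0.40 and 1.18 against -3.48, -1.10 and -0.16, a difference of 1.93 ± 0.31 (limma adjusted p = 0.0033). Fhl2, a LIM-domain protein of striated muscle, differed by 1.51 ± 0.25 (adjusted p = 0.00378), also without overlap. With the slide block Tecrl and Astn2 were called, whereas Cyfip2 (1.85), Fhl2 (1.42), Mhrt (1.79) and Lgi1 (1.83) were not, with limma adjusted p of 0.0535, 0.0628, 0.0628 and 0.125.

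Regulators of fibre type were called in 3 of 34 cases. Prox1, a homeobox factor known from slow fibres, differed by 1.12 ± 0.20, and the orphan nuclear receptors Esrrg and Esrrb, which act on oxidative genes, by 0.82 ± 0.15 and 0.77 ± 0.15. Their limma adjusted p were 0.00804, 0.00824 and 0.0174. Prox1 lay at -2.94, -1.85 and -1.46 in the high arrays and at -3.33, -3.18 and -2.55 in the low arrays, so the ranges overlapped. None of the 3 was called with the slide block (1.06, 0.74 and 0.73; adjusted p of 0.0915, 0.101 and 0.139). Another Esrrg probe had a plain mean difference of 0.10. The median of the 34 was 0.02, that of the whole array -0.02.

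Oxidative genes were called singly, and no test of a pathway was run. Ldhb, the lactate dehydrogenase subunit of oxidative tissue, differed by 0.75 ± 0.13 (limma adjusted p = 0.00595) and Idh2, the mitochondrial NADP-dependent isocitrate dehydrogenase, by 0.62 ± 0.12 (adjusted p = 0.0111). Mb (myoglobin, the oxygen store) differed by 0.48 ± 0.11 and Hspb7 (a small heat shock protein) by 0.79 ± 0.18, with adjusted p of 0.0418 and 0.0458. Mb was past the threshold in 3 and Hspb7 in 5 of the 16 fits without 1 array. With the slide block Ldhb, Idh2, Mb and Hspb7 were at 0.77, 0.64, 0.50 and 0.69, and none was called (limma adjusted p of 0.0525, 0.0729, 0.18 and 0.321). These were 3 of 10 oxygen and small heat shock genes and 1 of 20 citrate cycle genes. Of 40 respiratory chain and 32 fatty acid oxidation genes none was called, although 38 and 30 had differences above 0. Their medians were 0.05 and 0.14, against -0.02 for all genes, and the share of all genes above 0 was not counted. With Myh7 as a continuous term, 4 fatty acid genes were called higher, Fabp3 among them, and 1 lower, Lipe. Ndufb3 of the respiratory chain was also called higher in that fit. Fabp3, the fatty acid carrier of oxidative muscle, was at 0.42 ± 0.11 (adjusted p = 0.111). Of 24 glycolysis and glycogen genes none was called, and 4 were above 0 (median -0.12); Pfkfb3, which makes the activator of phosphofructokinase, was at -0.41 ± 0.14 and Phkb, a subunit of phosphorylase kinase, at -0.16 ± 0.07.

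**Figure D3:**
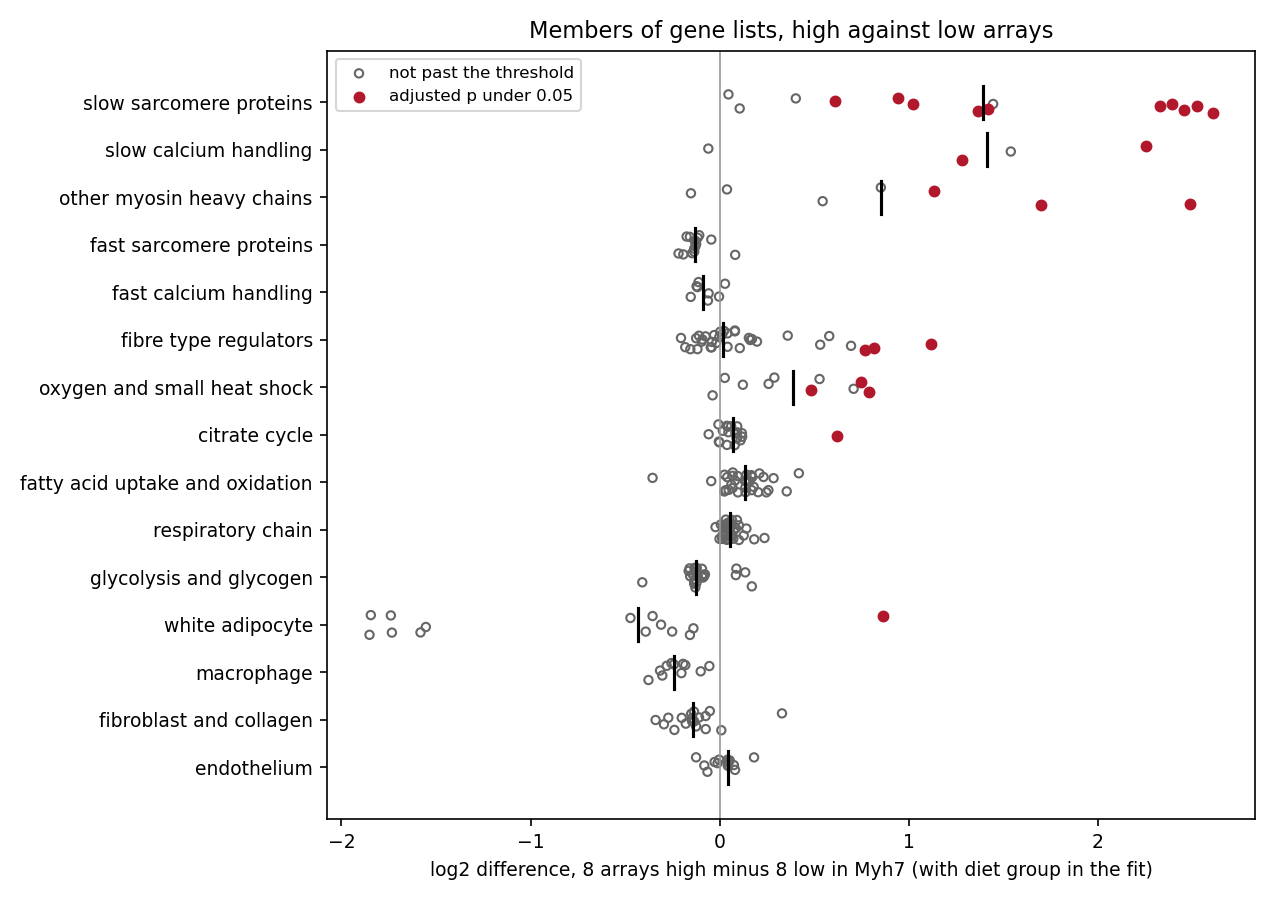
Log2 difference of every measured member (points) of 15 gene lists between the 8 high and 8 low arrays, from the limma fit with diet group; filled points have an adjusted p under 0.05 and black bars mark list medians. The slow lists reach 2.61 and hold 10 and 2 filled points, while fast sarcomere genes stay between -0.22 and 0.08 and respiratory chain genes between -0.02 and 0.24.

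Few genes were lower in the high arrays, and 2 of the 4 called had a plain gene symbol. Dock11, an exchange factor for the GTPase Cdc42, lay at -0.59, -0.46 and -0.33 in the high arrays and at -0.27, -0.18 and 0.24 in the low arrays. The difference was -0.38 ± 0.07, without overlap (limma adjusted p = 0.0111). It was not called with the slide block (-0.36, adjusted p = 0.101), with slide and array row (-0.27, 0.163) or with the adipocyte covariate (-0.28, 0.192). Smpd3, neutral sphingomyelinase, differed by -0.83 ± 0.19 (adjusted p = 0.0471) but was well above background on only 2 high and 6 low arrays, and it was past the threshold in 4 of the 16 fits without 1 array. The next by p did not pass: Cd1d2 (a lipid antigen presenter) at -0.39 ± 0.09, Sts (steroid sulfatase) at -0.41 ± 0.10 and Kif20a (a mitotic kinesin) at -0.41 ± 0.10, with limma adjusted p of 0.0527, 0.0583 and 0.0702.

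Likeness to Myh7 was also described over all 24 arrays by Pearson's r of group-centred values, which share arrays and scaling and carry no test. The 10 genes with the highest r were Myh7b (0.99), Tpm3 (0.99), Atp2a2 (0.99), Tnnc1 (0.99), Tnnt1 (0.98), Tnni1 (0.98), Myoz2 (0.97), Myh13 (0.97), Myl2 (0.97) and Fhl2 (0.95). Leaving out HFD_Cont 4 and STD_Cont 7, the 2 arrays farthest out, these 10 kept r between 0.91 and 0.99. Sln went the other way, from 0.38 to 0.72. At the negative end Sqor, the mitochondrial sulfide-quinone reductase, had an r of -0.82 over 24 arrays and -0.63 over 22, with a difference of -0.20 ± 0.07 that was not called. Sqor was called with Myh7 as a continuous term (limma adjusted p = 0.00144), but not when HFD_Cont 4 was removed from that fit.

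**Figure D4:**
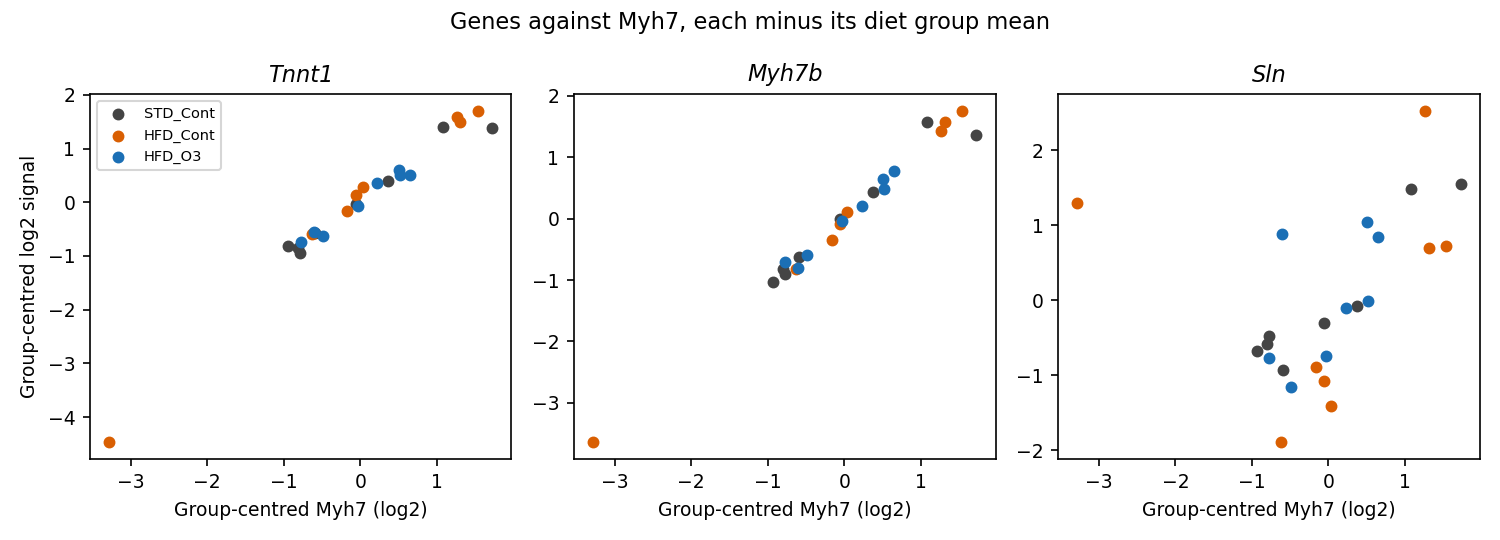
Group-centred log2 signal of Tnnt1, Myh7b and Sln (vertical axes) against group-centred Myh7 (horizontal axis, log2), 1 point per array, coloured by diet group. Tnnt1 and Myh7b lie close to a line down to HFD_Cont 4 at the far left (r of 0.98 and 0.99), whereas HFD_Cont 4 lies off the trend for Sln (r of 0.38, or 0.72 without HFD_Cont 4 and STD_Cont 7).

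The pattern was present within each diet group but smallest in HFD_O3. Plain mean differences of Tnnt1 were 2.19 in STD_Cont (2 high, 4 low arrays), 4.13 in HFD_Cont (3 and 2, HFD_Cont 4 among the low) and 1.18 in HFD_O3 (3 and 2). For Atp2a2 they were 2.41, 3.21 and 1.13, and for Casq2 1.66, 1.55 and 0.67. Myh7 itself spread least in HFD_O3. Per unit of Myh7, the slope of Tnnt1 was 0.97 in STD_Cont, 1.28 in HFD_Cont and 0.99 in HFD_O3, and that of Atp2a2 was 1.07, 0.96 and 0.99. Casq2 had 0.73, 0.45 and 0.48. Lower slopes in HFD_O3 stood for Myoz2 (0.74, 0.70 and 0.35), Ankrd2 (0.51, 0.52 and 0.16), Actn2 (0.32, 0.31 and 0.05) and Esrrb (0.51, 0.31 and 0.03). Of 35 named genes called higher, 27 had a lower slope in HFD_O3 than in STD_Cont. These genes vary together and were chosen on the same arrays. The share over all genes was not counted, so no diet difference can be read from the 27. A difference of slopes between diet groups was called for 0 of 19940 genes (limma F test, smallest adjusted p = 0.9999). At an unadjusted p under 0.05 there were 640 genes, where 997 would be expected by chance.

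Within slides, the plain mean difference was above 0 on all 3 slides for the 12 slow sarcomere and calcium genes called higher. Tnnt1 was higher in the high arrays by 1.52 on slide 1, 2.03 on slide 2 and 1.83 on slide 3, Atp2a2 by 1.62, 1.46 and 1.98, and Casq2 by 1.38, 0.94 and 1.30. Slide 2 held 1 high array and slide 3 held 1 low array, so these are values without a test. With diet group as a term in a fit of 1 slide alone, Actn2 (-0.027) and Ankrd2 (-0.29) fell below 0 on slide 3. For Cidea, a lipid droplet protein, the sign differed: 1.35, 0.94 and -0.14.

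The diet contrasts were not used to choose the arrays. HFD_Cont against STD_Cont had 582 called genes (2.92%), HFD_O3 against HFD_Cont 0 (0%), and HFD_O3 against STD_Cont 119 (0.597%). None of the 14 slow sarcomere, 4 slow calcium, 15 fast sarcomere, 8 fast calcium or 7 other myosin genes was among them, nor any of the 142 genes called between high and low arrays. The 142 were chosen for variation within diet groups, which widens the SE of a diet contrast. For the slow sarcomere genes among the 142 the SE ran from 0.18 (Actn2) to 0.64 (Tnnc1). For the fast sarcomere genes it ran from 0.06 (Myom2) to 0.15 (Myh1). Independence of diet therefore cannot be read from the lack of calls among the 142, and it was not tested. Tnnt1 was at -0.56 ± 0.63 in HFD_Cont minus STD_Cont, 0.30 ± 0.63 in HFD_O3 minus HFD_Cont and -0.26 ± 0.63 in HFD_O3 minus STD_Cont. The slow sarcomere medians were -0.28, 0.21 and -0.12, with smallest limma adjusted p of 0.582, 0.765 and 0.355. Each of the 3 Tnnt1 differences was smaller than its SE. With slide as a block, 1 fast calcium gene, Stac3, passed in HFD_Cont minus STD_Cont (0.21, adjusted p = 0.0449).

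Markers of other cell types were counted beside these results. White adipocyte genes had a median difference of -0.43, and 13 of the 14 were below 0, but the 1 called, Cidea, was higher at 0.86 ± 0.19 (limma adjusted p = 0.0289). Cidea was not called with the slide block (0.80, adjusted p = 0.208) or the adipocyte covariate (0.92, adjusted p = 0.107), and it passed in 7 of 16 fits that each omitted a single array. The covariate mean includes Cidea itself, so the outcome of Cidea with it is not informative. The mean adipocyte level ran from 0.99 to 2.06 in the high arrays, 0.86 to 3.02 in the middle and 0.76 to 3.31 in the low arrays, with HFD_Cont 4 the highest of 24. That array was also the highest for tendon genes (mean level 0.44) and the second highest for fibroblast and collagen genes (3.09). It was the lowest for genes of skeletal muscle identity (8.92; lowest high array also 8.92) and for 16 genes of limb position, at 0.54, where the lowest high array was at 1.11 and the lowest middle array at 1.05. None of the limb position genes was called (median difference 0.11). The part of these lists in the results was not tested, other than for the adipocyte markers. Their part in the counts above was tested only as a covariate: of the 37 named genes that were called, 14 remained past the threshold. The differences of the 37 were 58.9% to 112% of those without the covariate, with a median of 93.3%. Tnnt1 was at 2.20 and Ldhb at 0.74, and neither was called (limma adjusted p of 0.0735 and 0.0653). Macrophage genes (11, median -0.24), fibroblast and collagen genes (18, median -0.14), endothelial genes (14, median 0.04), tendon genes (11), Schwann cell genes (13), smooth muscle genes (7), satellite cell genes (9), lymphocyte genes (5) and erythroid genes (7) had none called. Of 12 cardiac genes 4 were measured and none called; Tnni3, Mybpc3, Myl7, Ryr2 and Nppb were among the 8 that did not pass the filter on dim probes. Of 10 genes of skeletal muscle identity, 1, Mb, was called.

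**Figure D5:**
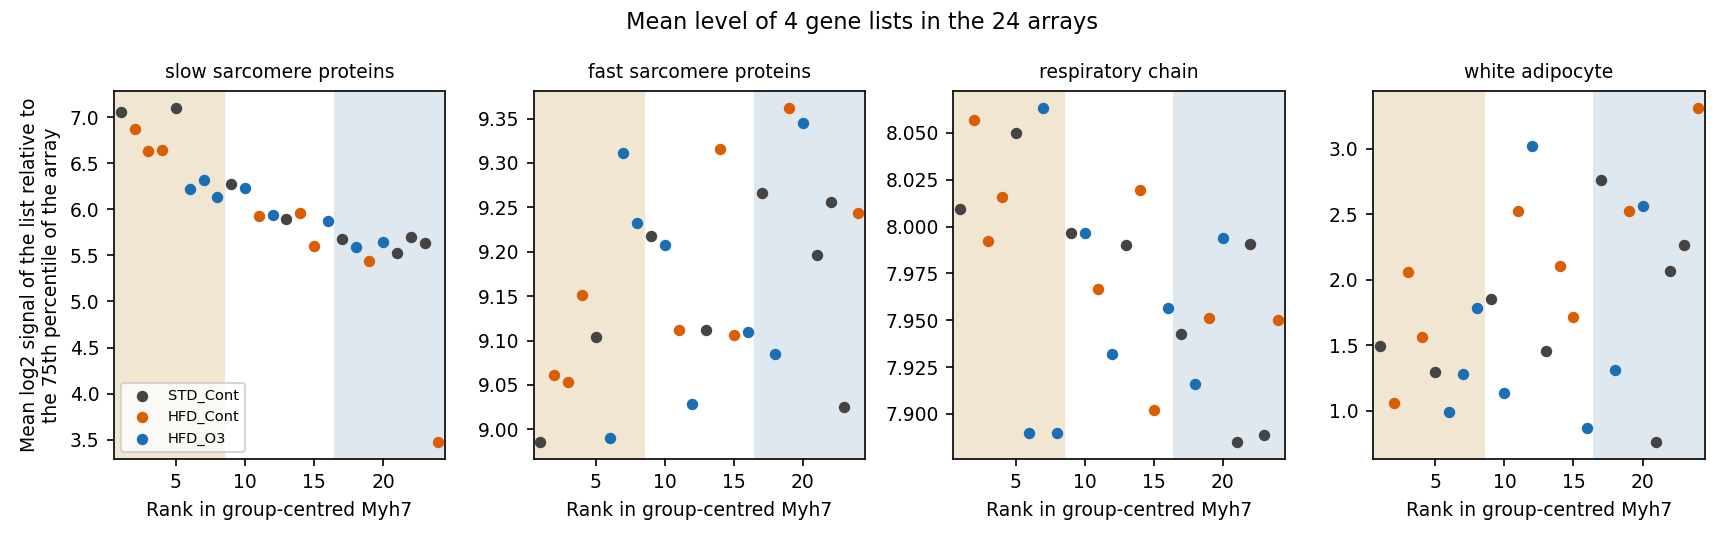
Mean level of 4 gene lists (log2 signal relative to the array's 75th percentile; vertical axes differ) in the 24 arrays ordered by group-centred Myh7 (rank, horizontal axis), 1 point per array, coloured by diet group. The slow sarcomere mean lies at 6.13 to 7.10 in the left band and at 5.70 or below in the right band, the fast sarcomere and respiratory chain means overlap between bands, and the adipocyte mean is highest, 3.31, in HFD_Cont 4.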

How the data were processed

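The scanner files hold spot intensities that the authors obtained with Agilent Feature Extraction 10.10.1.1, per the file headers, background-subtracted but not normalized between arrays; probe positions are on mm9. The deposited value table holds log2 values normalized between arrays by the authors (limma is named, without a version, in the submitters' processing notes); it served to rank the arrays, and its 24 columns each matched their own array best. How it was filtered is not given in the sources used here; its column medians were 7.69 to 7.70.

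Here log2 processed signals were scaled to each array's 75th percentile. Probes well above background on at least 6 of 8 arrays of a diet group were kept (29251), and each gene took its brightest probe. RefSeq symbols were found for 32994 of 56605 probes. limma 3.58.1 in R 4.3.3 fitted Myh7 level (high, middle, low) plus diet group over 24 arrays with 19 residual degrees of freedom, and p-values were Benjamini-Hochberg adjusted over 19940 genes. On simulated data for this comparison (19884 genes), 70% of changes of 0.5 and 92% of changes of 1 log2 unit were recovered. In the same simulation 15 of 19684 unchanged genes were called. These figures describe the simulation only. In the measured arrays the called genes went from 142 to 23 with slide as a block. Recovery in the presence of slide differences, of genes that vary together or of an array like HFD_Cont 4 was not tested.

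Genes were named by rule: the 12 largest called rises, the called falls or else the 5 falls with the smallest p, up to 4 called or otherwise 2 members per list, the slow sarcomere and slow calcium lists, and the 10 genes most and a selection of the 5 least like Myh7. One gene that the rule takes is not reported here. The members and lists were chosen with earlier results of these data known. The number of arrays limits the precision. Alternatives were other normalizations, filters, rankings, blocks and single arrays left out. Same-numbered replicates were checked for pairing: 6 of 24 pairs correlated above 0.1 (-0.14 to 0.37), so the numbers were not taken to pair samples. Named plain mean differences are means over arrays without the diet term.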

Additional observations from a re-analysis of the deposited data

Results flagged for a closer look

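In each diet group of 8 arrays, the genes named above were searched for an array whose gap to its nearest neighbour was too large a part of the group's range by Dixon's ratio. Chance gives such a gap in about 1 in 20 groups; it was found in 18 of 168. The genes were named because they follow Myh7, they vary together, and HFD_Cont 4 is the most extreme array in Myh7, so the count cannot be set against that rate. The array HFD_Cont 4 gave 13 of the 18. It was far below the other HFD_Cont arrays, each value followed by the nearest, for Ankrd2 (4.04, nearest 5.57), Atp2a2 (0.96, nearest 3.44), Bdh1 (2.17, nearest 3.55), Csrp3 (1.35, nearest 4.06), Fhl2 (-1.98, nearest 0.03), Lgi1 (-6.51, nearest -3.92), Myl2 (2.39, nearest 6.95), Myom3 (2.36, nearest 4.13), Myoz2 (2.79, nearest 4.85), Tnnc1 (-0.79, nearest 2.74), Tnni1 (0.67, nearest 3.98) and Tnnt1 (2.71, nearest 6.58). These levels are log2 signals relative to the array's 75th percentile. It was highest for Kif20a (-2.50, nearest -2.91). The slow-fibre genes among these were called with and without this array in the ranking, other than Csrp3, which was called in neither.

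The other 5 gaps fell on 5 different arrays: Myh1 was low on HFD_Cont 6 (8.10, nearest 8.93), Myl6b high on HFD_O3 3 (2.75, nearest 2.21) and Mylk2 high on HFD_O3 7 (7.78, nearest 7.43). Myl3 was low on STD_Cont 4 (9.34, nearest 9.65) and Sts low on STD_Cont 7 (2.80, nearest 3.14).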

How the results depend on the processing

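Against 142 called genes and 24 called members of the gene lists, the counts stayed within 1.5 times under quantile normalization (126 and 25), normexp (132 and 31), the deposited value table (153 and 26), the mean of a gene's probes (131 and 24), the scanner ranking (142 and 24), ranking by Tnnt1, Tnni1 and Myl2 (119 and 20), no diet term (116 and 22), trend and robust variance (151 and 24) and, chosen after seeing the data, ranking without HFD_Cont 4 (120 and 25). They moved further with slide as a block (23 and 8), slide and array row (20 and 5), slide 2 alone (1 and 0), slide 3 alone (25 and 0), the white adipocyte covariate (26 and 9) and Myh7 as a continuous term (318 and 40). Only the gene count moved further with no filter on dim probes (81), with only the high and low arrays (86) and, chosen after seeing the data, with the brighter Myh7 probe (75) and the continuous term without HFD_Cont 4 (233). Tnnt1, Tnni1 and Myl2 were not left out of the fit ranked by them, so their own outcome in it was fixed by the choice. Slide 1 alone could not be fitted. Leaving out 1 array gave 63 to 222 genes and 17 to 32 members: 63 without STD_Cont 6, 66 without STD_Cont 7, 79 without HFD_Cont 4, 82 without HFD_Cont 3 and 222 without HFD_O3 8. The cause of these shifts was not tested. With the label's replicate number as a replicate block, 17 genes and 3 members were called.

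No gene named for the high against low arrays changed sign except on single slides, where slide 2 has 1 high array and slide 3 has 1 low array. On slide 2 these were Mybpc1 (-0.19), Mybpc2 (0.12), Myh1 (-0.17), Myh4 (0.22), Myh6 (-0.44), Prox1 (-0.22), Smpx (-0.029) and Sqor (0.11). On slide 3 they were Actn2 (-0.027), Ankrd2 (-0.29), Bdh1 (-0.0076), Cidea (-0.30), Csrp3 (-0.14), Esrrb (-0.11), Fabp3 (-0.16), Hrc (0.045), Hspb7 (-0.18), Ldhb (-0.11), Mb (-0.0017), Mybpc2 (0.017), Myh1 (-0.045) and Myh4 (0.34). The count of list members called between diets was 0 in every fit other than the slide block (1), and the slope difference was 0 in every fit run.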

Other observations

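Outside the lists and chosen after their values were seen, 4 genes whose products act in mitochondria are described here; they form no list and no enrichment was tested. Nnt, the transhydrogenase that makes NADPH in the mitochondrial matrix, lay at 3.68, 3.88 and 4.26 in the high arrays (lowest, median, highest) and at 2.49, 3.42 and 3.62 in the low arrays, without overlap, and differed by 0.70 ± 0.12 (limma adjusted p = 0.00673). Bdh1 and Acat1, which handle ketone bodies, differed by 1.03 ± 0.20 and 0.26 ± 0.05 (adjusted p of 0.012 and 0.00639). Sdhaf4, an assembly factor of complex II, differed by 0.33 ± 0.06 (adjusted p = 0.00987) and was the only one of these 4 past the threshold with the slide block (0.36, adjusted p = 0.0497).

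Ift81, a component of the transport machinery of cilia, was also chosen after its values were seen. It lay at 1.19, 1.97 and 2.59 in the high arrays and at 0.03, 0.64 and 0.86 in the low arrays, without overlap, a difference of 1.38 ± 0.14 (limma adjusted p = 3.64e-05). Homer2, a scaffold protein that binds calcium channels, differed by 1.0 ± 0.15 (adjusted p = 0.00159), with 7 of 8 high arrays above all low arrays, although another probe had a plain mean difference of 0.04. Both were called with the slide block (1.27 and 1.01), the adipocyte covariate (1.35 and 0.97) and without HFD_Cont 4 in the ranking (1.25 and 0.88).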
